A study of Mus musculus with 54 samples.

Results

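The antigen presentation and interferon response genes described here are 34 members chosen by name, which is 34 of the 55487 gene rows of the deposited expression table. They are the light chain and 3 heavy chains of major histocompatibility complex (MHC) class I, 4 class II chains, 8 genes that supply peptides to class I, 6 transcription factors and 12 interferon-stimulated effectors. They were measured in early proximal tubules, the first kidney segment after the glomerulus, which were stained for the glucose transporter SGLT2 and cut out by laser from kidneys of 14-week-old male DBA mice, 70 to 80 tubules per sample. Non-diabetic mice (Ins2+/+) and their diabetic littermates (Ins2 Akita/+, which carry a misfolding proinsulin) were either Sglt1+/+, called wild type below, or Sglt1-/-. The Sglt1-/- mice are knockouts of SGLT1, a glucose transporter of intestine and kidney encoded by Slc5a1. Each of these 4 kinds of mice received vehicle or dapagliflozin, an SGLT2 inhibitor given at 10 mg/kg diet, for 2 weeks. A ninth group, Akita wild type, received daily subcutaneous semaglutide (3 nmol/kg body weight per day), which activates the GLP-1 receptor. The labels describe 6 samples in each group, and the table holds 48 of the 54. There were 5 vehicle, 4 dapagliflozin libraries in non-diabetic wild type and 5 vehicle, 6 dapagliflozin libraries in non-diabetic knockout. Akita wild type had 6 vehicle, 5 dapagliflozin and 5 semaglutide libraries, and Akita knockout had 6 vehicle and 6 dapagliflozin libraries. The labels do not say whether samples of a group came from separate mice, so p-values below rest on sample-to-sample spread that may be technical.

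MHC class I molecules, each a heavy chain paired with B2m, show peptides from inside the cell to CD8 T cells. The peptides are cut by the proteasome, in which interferon replaces 3 catalytic subunits by Psmb8, Psmb9 and Psmb10, and are carried into the endoplasmic reticulum by Tap1 and Tap2. Class II molecules (H2-Aa, H2-Ab1, H2-Eb1, with the invariant chain Cd74) are characteristic of professional antigen-presenting cells, but tubule epithelium can also make them after exposure to interferon-gamma, through the coactivator Ciita. Type I interferon acts through Stat2 and Irf9, which bind the interferon-stimulated response element (ISRE) of antiviral genes such as Isg15, Ifit1 and Rsad2, and Irf7 amplifies that response.

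The promoters below are shown so that the letters of class II genes, B2m, the factor Irf1 and antiviral genes can be set side by side. RefSeq promoters of build GRCm38.p6 were matched to 28 of the 34 members, the other 6 being H2-Ab1, Cd74, Ciita, Nlrc5, Tap2 and Usp18. Each sequence is the 150 bases before the gene start, 5′ to 3′ on the gene's strand, in the reference strain and not in DBA. Capitals mark matches on either strand to 3 motifs: the ISRE core GAAANNGAAA, the gamma-activated site (GAS) TTCNNNGAA, and the CCAAT box, which can read ATTGG on the strand shown. Matches to one motif may overlap each other.
H2-Aa, chr17:34287824-34287973, minus strand: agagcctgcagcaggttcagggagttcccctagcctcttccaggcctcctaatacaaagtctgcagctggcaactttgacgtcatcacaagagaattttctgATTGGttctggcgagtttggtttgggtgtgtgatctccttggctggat
H2-Eb1, chr17:34305717-34305866, plus strand: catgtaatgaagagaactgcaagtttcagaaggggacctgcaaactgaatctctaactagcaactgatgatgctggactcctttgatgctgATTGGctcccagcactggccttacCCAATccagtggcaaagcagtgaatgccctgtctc
B2m, chr2:122147537-122147686, plus strand: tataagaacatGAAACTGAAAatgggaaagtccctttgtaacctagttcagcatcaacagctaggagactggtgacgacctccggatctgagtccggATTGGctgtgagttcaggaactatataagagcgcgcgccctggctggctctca
Irf1, chr11:53769864-53770013, plus strand: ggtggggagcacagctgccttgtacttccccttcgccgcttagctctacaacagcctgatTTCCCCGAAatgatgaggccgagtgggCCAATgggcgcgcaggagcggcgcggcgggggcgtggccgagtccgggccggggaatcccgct
Isg15, chr4:156200819-156200968, minus strand: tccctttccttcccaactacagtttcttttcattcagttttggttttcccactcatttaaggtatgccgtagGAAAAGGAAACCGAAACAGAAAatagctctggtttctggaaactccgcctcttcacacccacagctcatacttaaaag
Rsad2, chr12:26456453-26456602, minus strand: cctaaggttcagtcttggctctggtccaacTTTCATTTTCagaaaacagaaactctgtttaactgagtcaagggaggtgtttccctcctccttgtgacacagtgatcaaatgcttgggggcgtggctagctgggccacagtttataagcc

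The H2-Aa and H2-Eb1 windows held CCAAT boxes and no ISRE or GAS letters. B2m held an ISRE that begins 139 bases before the start together with a CCAAT box. In Irf1 the marked stretches were a GAS, 90 bases before the start, and a CCAAT box. Isg15 held 3 overlapping ISRE matches, and the single Rsad2 match reads on the opposite strand. Over the members with a promoter, 10 of 28 held an ISRE, 4 held a GAS and 10 held a CCAAT box. Among 32851 RefSeq promoter windows of the same length, 1.59% held the ISRE, 4.09% the GAS and 24.5% the CCAAT box. These shares are per window, while a member with several windows was counted if any of them held the motif. A match describes letters only. The members are also close neighbours on the genome: 11 of the 34 lie on chromosome 17 between 33915899 and 36032855 of GRCm38, the MHC region, where Psmb9 (34181987 to 34187764) and Tap1 (34187553 to 34197225) are transcribed away from each other.

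Expression is given in TPM, a transcript abundance that is corrected for gene length and sums to the same total in every library, so levels of different genes can be set side by side, while sequencing depth is unknown. Libraries held between 8465 and 11419 genes at 1 TPM or more, with a median of 10116. Nuclear protein-coding genes (Lars2 not counted) held only a small share of the TPM total. It ran from 5.98% in Akita wild-type vehicle sample 5 to 14.1% in Akita knockout dapagliflozin sample 5. The TPM of these genes depend on that share. Slc5a2, which encodes SGLT2, was present at 82.5 to 275 TPM in every library. The deleted gene Slc5a1 lay between 0.814 and 4.29 TPM in the wild-type libraries and between 0 and 0.123 TPM in the knockout libraries. All libraries thus matched their labelled Sglt1 genotype, while the Ins2 genotype was not checked. In 4 respects the libraries or the genes limit the results below. A set of 4 libraries had fewer than 9000 genes, and all 4 were Akita vehicle (wild-type samples 2 and 5, knockout samples 5 and 6). Their nuclear protein-coding share was also low, at 6.66%, 5.98%, 6.26% and 6.03% in that order. A set of 7 libraries stood apart in H2-Ab1. H2 genes are polymorphic and resemble each other, so reads of DBA mice may have been split among them or lost against a reference genome, and their levels are uncertain in that respect. In bulk samples fewer cells of a type and less RNA per cell cannot be told apart.

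Class I genes were the most abundant members. H2-D1, a class I heavy chain, ranged over 18.2 to 98.8 TPM with a median of 33.5 TPM across the 48 libraries, H2-K1 over 8.67 to 91.1 TPM (median 24.4) and B2m over 7.66 to 93.2 TPM (median 21.4). The non-classical heavy chain H2-T23 lay lower, at 3.40 to 31.9 TPM with a median of 7.15 TPM. All 4 were above 1 TPM in every library. Of the peptide-supply genes, Tapbp, which holds empty class I molecules next to the peptide transporter, had a median of 13.0 TPM (5.26 to 44.8). The proteasome activator subunits Psme1 and Psme2 had medians of 7.02 and 4.55 TPM. The transporter subunits were lower, with a median of 1.20 TPM for Tap1 (0.261 to 5.26) and 1.84 TPM for Tap2 (0.683 to 5.66). Psmb8, Psmb9 and Psmb10, the interferon-inducible proteasome subunits, had medians of 1.01, 0.360 and 0.739 TPM, and Psmb9 was listed at 0 in 5 libraries. Set against the constitutive subunit that each one replaces, Psmb8 made up a median of 12.5% of Psmb8 plus Psmb5, Psmb9 2.55% of Psmb9 plus Psmb6, and Psmb10 9.86% of Psmb10 plus Psmb7. Most libraries thus held mainly the constitutive transcripts, with single libraries reaching 60.8% for Psmb8, 23.8% for Psmb9 and 40.9% for Psmb10.

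Class II transcripts were present in nearly all libraries. The invariant chain Cd74 ranged from 3.46 to 169 TPM (median 13.8), H2-Ab1 from 2.55 to 168 TPM (median 9.49), H2-Eb1 from 0.583 to 41.5 TPM (median 4.18) and H2-Aa from 0 to 13.3 TPM (median 1.54). Ciita, their coactivator, had a median of 0.914 TPM and a highest value of 9.52 TPM. Nlrc5, the corresponding class I coactivator, had a median of 0.911 TPM. Among the factors of the interferon response, Stat2 was at 1.22 to 9.40 TPM (median 3.62), Irf1 at 0.488 to 20.2 TPM (median 2.91), Irf9 at 0.712 to 5.51 TPM (median 2.48) and Irf7 at 0 to 4.06 TPM (median 1.10).

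The antiviral effectors were at the bottom of the range. Ddx58, which encodes the viral RNA sensor RIG-I, was the highest of them at a median of 3.51 TPM (0.898 to 13.6), followed by Ifi35 at 2.27 TPM. Rsad2, the antiviral enzyme viperin, had a median of 0.946 TPM and stayed between 0.328 and 1.99 TPM. Isg15, a ubiquitin-like modifier that is among the most strongly induced genes of an interferon response, was listed at 0 in 35 of 48 libraries and never exceeded 0.807 TPM. Medians of the remaining effectors were 0.673 TPM for Ifit3, 0.589 TPM for Gbp3, 0.408 TPM for Xaf1, 0.392 TPM for Bst2, 0.255 TPM for Gbp2, 0.170 TPM for Usp18, 0.169 TPM for Ifit1 and 0.137 TPM for Oas1a. In all, 5 members had a median of at least 10 TPM, 15 a median from 1 to under 10 TPM and 14 a median under 1 TPM. Tests below cover the 29 members with at least 1 TPM in at least 5 samples, the filter applied to all genes. Isg15, Ifit1, Oas1a, Usp18 and Gbp2 did not pass it and were not tested.

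**Figure D1:**
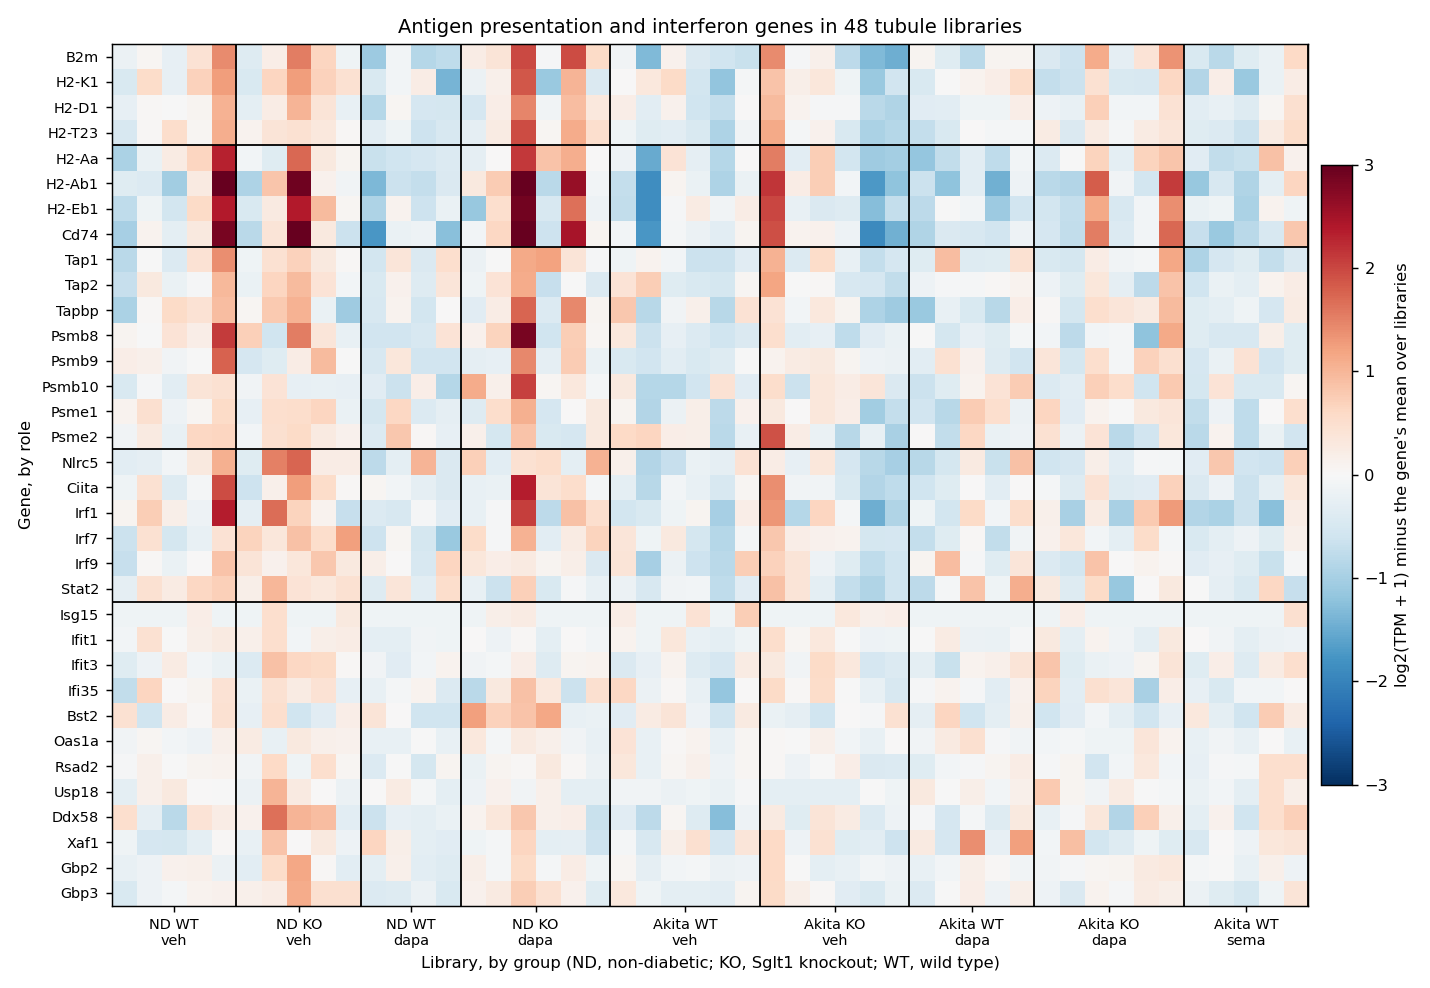
Each of the 34 genes (rows, in blocks by role) in each of the 48 libraries (columns, by group; ND non-diabetic, AK Akita, WT wild type, KO Sglt1-/-, veh vehicle, dapa dapagliflozin, sema semaglutide), coloured by log2(TPM + 1) minus the gene's mean over all libraries, with colours clipped at -3 and 3. Single columns within groups stand out in the class I and class II blocks, more than whole groups do.

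The largest variation among the members lay between libraries of the same group. H2-Ab1 values of the 5 non-diabetic wild-type vehicle libraries were 9.02, 8.72, 5.27, 14.6 and 140 TPM. In non-diabetic knockout vehicle they were 5.80, 22.05, 96.04, 13.2 and 11 TPM. Non-diabetic knockout mice on dapagliflozin had 6.32 TPM at the lowest, a median of 17.9 TPM and 168 TPM at the highest. In each of these 3 groups 1 or 2 libraries were several times above the rest. The 4 non-diabetic wild-type dapagliflozin libraries held 4.11, 7.28, 6.87 and 8.55 TPM, with no such library. Akita wild-type libraries ranged over 2.55 to 12.7 TPM (median 8.51) on vehicle, and were 7.20, 4.59, 9.38, 3.76 and 10.7 TPM on dapagliflozin. On semaglutide the values were 4.91, 8.24, 5.94, 9.59 and 19.3 TPM. Akita wild-type libraries thus stayed between 2.55 and 19.3 TPM under all 3 treatments. Akita knockout libraries ran from 2.88 to 55.9 TPM (median 12.5) on vehicle and from 6.03 to 53.8 TPM (median 9.36) on dapagliflozin, again with isolated high libraries. Every pair of groups overlapped in H2-Ab1.

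Cd74 showed the same libraries. In non-diabetic wild-type vehicle it was at 7.29, 16.8, 12.6, 19.5 and 118 TPM, and in non-diabetic knockout vehicle at 8.55, 20.8, 169, 19.5 and 9.59 TPM. B2m in those groups was at 20.02, 23.8, 19.1, 31.3 and 62.3 TPM, and at 17.3, 26.5, 68.6, 36.3 and 20.8 TPM. The sample that was highest in H2-Ab1 was highest in Cd74 and in B2m as well, in both groups. Between the lowest and the highest library H2-Ab1 differed by a factor of 65.8, Cd74 by 48.8, B2m by 12.2, H2-K1 by 10.51 and H2-D1 by 5.42, while Slc5a2 differed by 3.33.

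**Figure D2:**
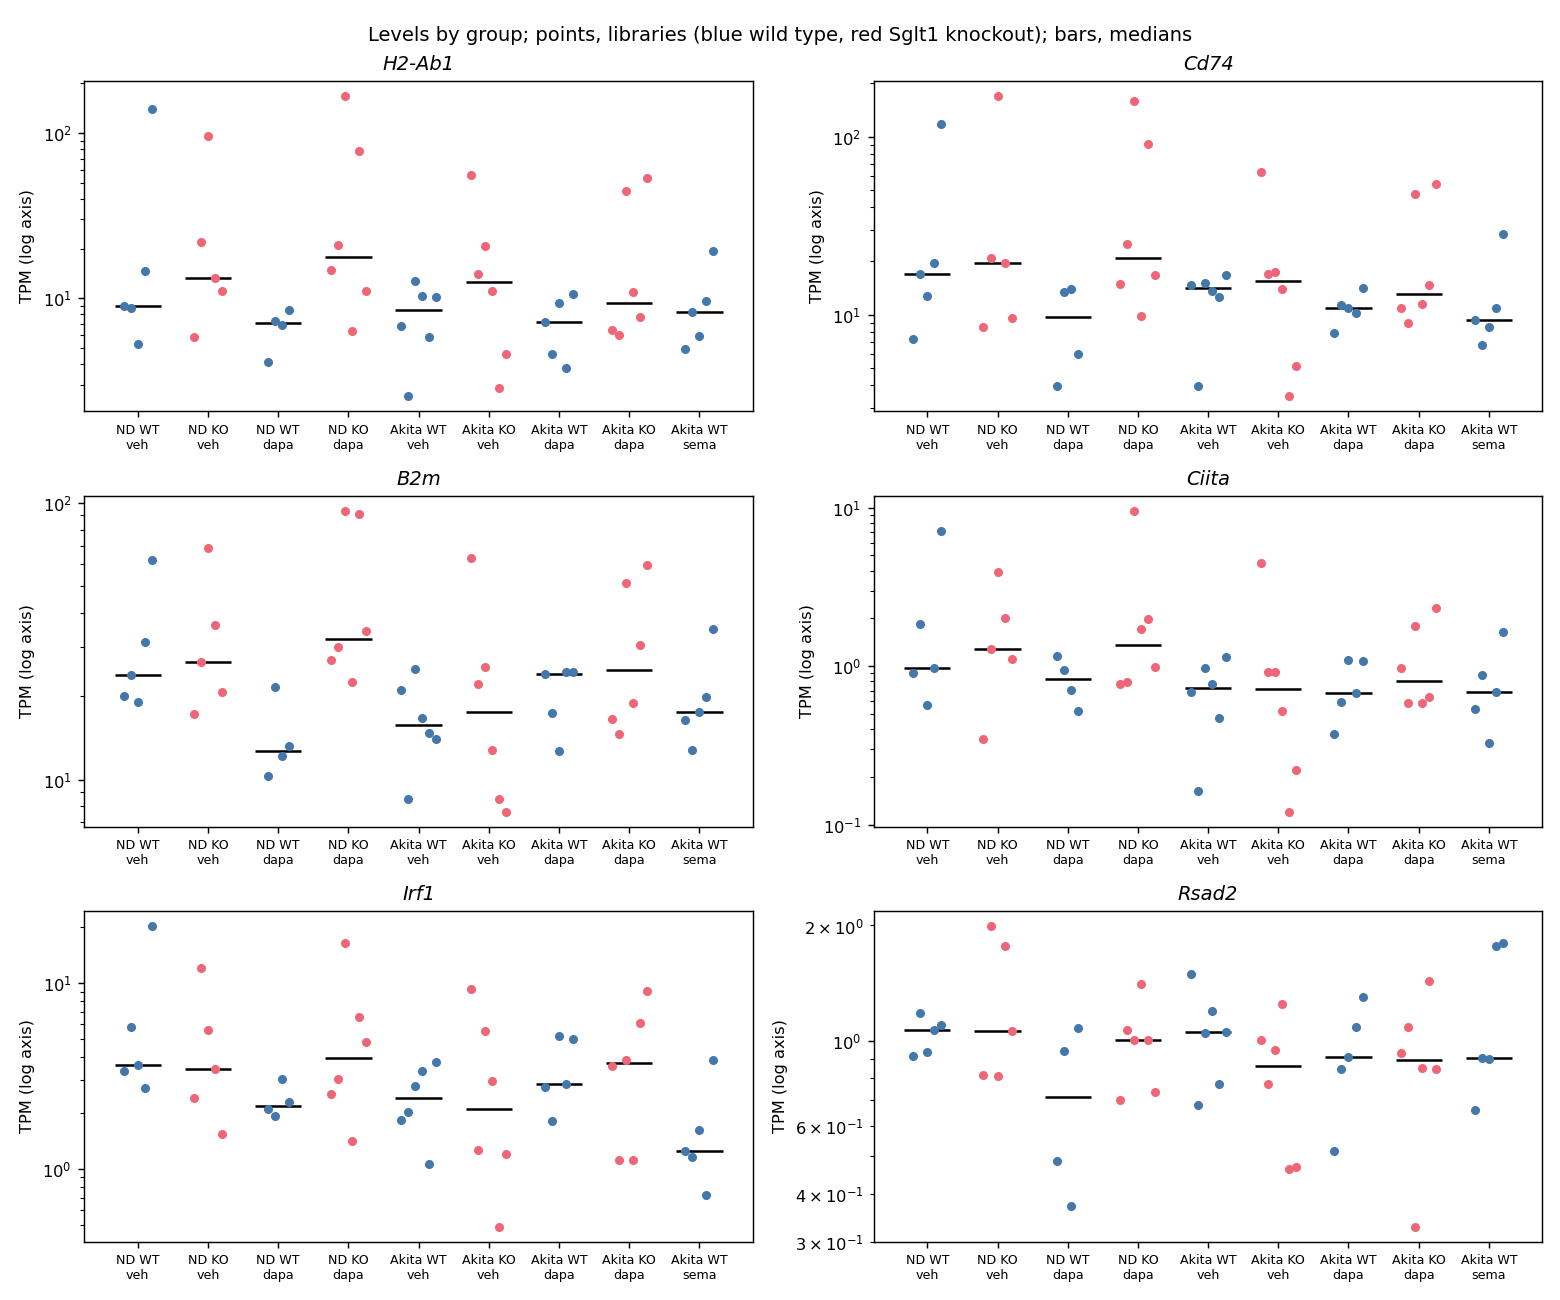
TPM (log axis) of H2-Ab1, Cd74, B2m, Ciita, Irf1 and Rsad2 in each library by group (abbreviations as in the heat map; blue wild type, red Sglt1-/-), with bars at the group medians. H2-Ab1 and Cd74 carry isolated high libraries in 5 groups, and Rsad2 stays between 0.328 and 1.99 TPM throughout.

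The spread was also measured against other genes. The SD between libraries of one group, taken from the fit described below, was 1.25 log2 units for H2-Ab1, which put it at percentile 98.6 among genes of like level. H2-Eb1 was at percentile 98, B2m at 97.4, Cd74 at 97.01, Irf1 at 96.8 and H2-K1 at 96.4. Of the 29 tested members 26 were above the median of genes of like level, 11 above the 90th percentile and 0 above the 99th. The 7 tested effectors had lower percentiles: Xaf1 was at percentile 75.8, Ddx58 at 71.3, Bst2 at 65.9, Ifi35 at 59.5, Ifit3 at 45.9, Gbp3 at 22.4 and Rsad2 at 6.59. Irf7 was at percentile 54.7.

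Sorted by H2-Ab1, the libraries had their widest gap between 22.05 and 44.5 TPM, a ratio of 2.02, where the next widest ratio was 1.45. The 7 libraries above it were sample 6 of non-diabetic wild-type vehicle (140 TPM), sample 3 of non-diabetic knockout vehicle (96.04 TPM), samples 3 and 5 of non-diabetic knockout dapagliflozin (168 and 77.8 TPM), sample 1 of Akita knockout vehicle (55.9 TPM) and samples 6 and 3 of Akita knockout dapagliflozin (53.8 and 44.5 TPM). They came from 5 of the 9 groups, 6 of them from knockout and 1 from wild-type mice, 4 from non-diabetic and 3 from Akita mice. These libraries were picked by their H2-Ab1 value, so what follows describes each one against the lower libraries of its own group, with no test. The share of all tested genes that were above their groups' lower libraries was not counted. The counts out of 7 below therefore have no background, and low ones in particular cannot be read as a difference.

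The other class II genes were high in the same libraries. Cd74 exceeded every lower library of its group in 7 of 7, by 4.26 to 11.6 times their median, H2-Eb1 in 7 of 7 by 3.84 to 11.5 times, and H2-Aa in 7 of 7 by 2.23 to 7.47 times. Ciita, the class II coactivator, exceeded them in 7 of 7 by 2.20 to 10.6 times. Class I genes were raised less in the same 7 libraries: B2m by 2.84 to 4.96 times, H2-K1 by 1.62 to 4.64 times, H2-D1 by 1.48 to 2.71 times and the peptide-loading gene Tapbp by 1.30 to 3.86 times, each above its group's lower libraries in 7 of 7. H2-T23, Psmb8, Tap2 and Stat2 were above theirs in 6 of 7, and Irf1, Tap1 and Psmb10 in 5 of 7. The interferon-stimulated effectors were mixed. The GTPase genes Gbp2 and Gbp3 were above their groups' lower libraries in 5 of 7 and 4 of 7, at a median of 2.06 and 1.62 times, and Xaf1 and Ifit1 in 3 of 7. Of the other 8 effectors Ifi35, Bst2 and Oas1a were above in 2 of 7, Ddx58, Ifit3 and Isg15 in 1 of 7, and Rsad2 and Usp18 in 0 of 7. Irf9 was above in 3 of 7 and Irf7 in 2 of 7.

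Among genes outside the members, chosen after their values were seen, the interferon-gamma-inducible GTPase genes Igtp (2.16 to 11.97 times), Iigp1 (2.77 to 35.4 times) and Tgtp1 (2.30 to 31.7 times) and the class II peptide exchanger H2-DMb2 (2.92 to 27.6 times) were above their groups' lower libraries in 7 of 7. Of other interferon-stimulated genes, Lgals3bp was above in 7 of 7 (1.46 to 2.44 times), Ifi27 and Gbp7 in 6 of 7, and Ifi44 in 3 of 7. Constitutive proteasome subunits Psmb5, Psmb6 and Psmb7 were above in 2 of 7 each. Markers of other cells were read in the same libraries. The summed TPM of 19 leukocyte markers was above in 3 of 7, at 0.746 to 2.25 times the median. Single markers were above in at most 4 of 7, which was Aif1. The pan-leukocyte gene Ptprc was above in 1 of 7 at a median of 1.12 times, and the macrophage gene Csf1r in 2 of 7 at 0.861 times. The complement gene C1qa, made by macrophages, was above in 0 of 7 but at a median of 2.19 times (0.988 to 2.68), and Laptm5 in 1 of 7 at 1.97 times (1.12 to 3.01). Of the 19 markers 7 had their highest value of the 48 libraries in one of the 7: Lyz2, Itgam, Itgax, Aif1, C1qb, C1qc and Cd3g. The share of all genes with their highest value there was not counted. The part of leukocytes in these libraries was not tested. Proximal tubule genes Slc5a2, Slc34a1 and Lrp2 were above in 0 of 7, Slc5a2 at 0.473 to 1.504 times the median. Over all 48 libraries the T, B and NK cell genes were at or near 0: Nkg7 was listed at 0 in 44, Ms4a1 in 38, Cd3e in 33, Cd79a in 30 and Cd3g in 29. Myeloid genes Tyrobp, Fcer1g and Aif1 were listed at 0 in 33, 29 and 25 libraries, while Ptprc (median 1.05 TPM) and Csf1r (median 1.36 TPM) were never at 0.

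**Figure D3:**
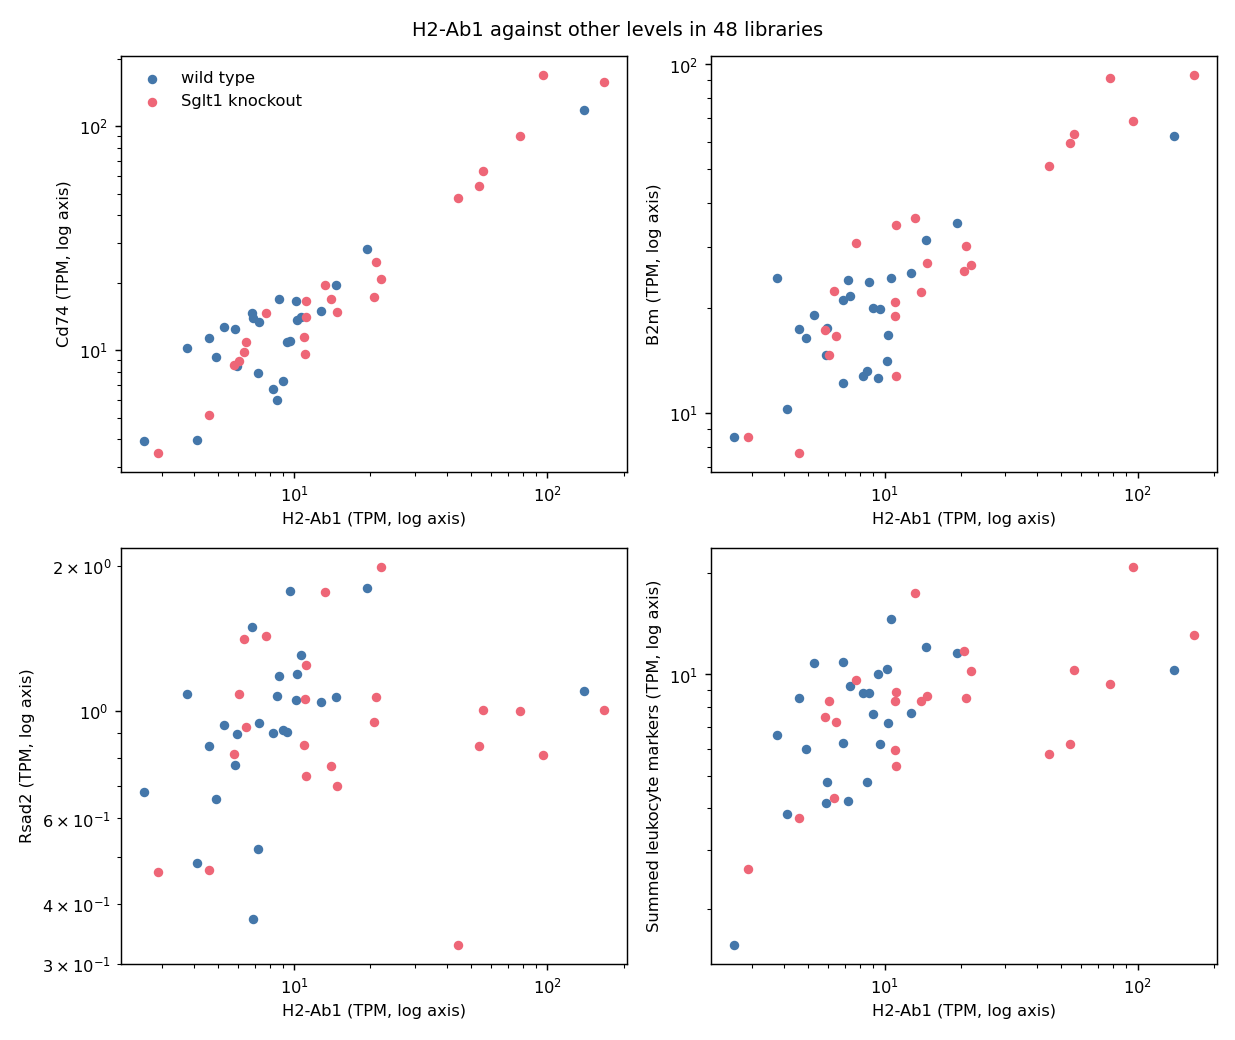
Cd74, B2m, Rsad2 and the summed leukocyte markers (vertical, TPM, log axes) against H2-Ab1 (horizontal, TPM, log axis) in the 48 libraries; blue wild type, red Sglt1-/-. The 7 libraries at 44.5 TPM or more of H2-Ab1 are high in Cd74 and B2m, and lie between 0.328 and 1.10 TPM in Rsad2.

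Below the gap the other class II genes still varied with H2-Ab1, as did members of other roles. Over the remaining 41 libraries, as deviations from their group mean on the log2(TPM + 1) scale, Cd74 correlated with H2-Ab1 (Pearson r = 0.789, Spearman rho = 0.746; permutation within groups, two-sided, adjusted p = 0.00068 and 0.00068 over 34 relations; r = 0.719 without the 2 libraries farthest from the median of H2-Ab1). For B2m r was 0.677 and rho 0.681 (permutation, adjusted p = 0.0011 and 0.00102; r = 0.608 without the 2 farthest). The summed leukocyte markers correlated with H2-Ab1 about as strongly, at r = 0.699 and rho = 0.655 (permutation, adjusted p = 0.00068 and 0.00102; r = 0.606 without the 2 farthest), and so did the number of genes at 1 TPM or more, at r = 0.584 and rho = 0.571 (permutation, adjusted p = 0.00397 and 0.00303; r = 0.519 without the 2 farthest). For the nuclear protein-coding share r was 0.467 and rho 0.456 (permutation, adjusted p = 0.017 and 0.0186), and r was 0.41 without the 2 farthest. The summed endothelial markers passed too, at r = 0.477 (permutation, adjusted p = 0.0206). Summed markers of a later kidney segment, the thick ascending limb (r = 0.416), and of early proximal tubule (r = 0.371) did not pass for r. Their adjusted permutation p-values were 0.0503 and 0.0515. The part of these quantities in the relations among the members was not tested. Antiviral effectors were among the genes that passed: for Ddx58 r was 0.58 and rho 0.641 (permutation, adjusted p = 0.00187 and 0.00102; r = 0.58 without the 2 farthest). Ifit3 (r = 0.57), Xaf1 (r = 0.533) and Rsad2 (r = 0.52) passed as well, at adjusted permutation p-values of 0.00344, 0.00287 and 0.00625. The class II chains H2-Eb1 (r = 0.615) and H2-Aa (r = 0.478) passed at adjusted permutation p-values of 0.00129 and 0.0176. Without the 2 farthest their r was 0.508 and 0.358. Psme1, which supplies peptides to class I, was higher than both at r = 0.644 (permutation, adjusted p = 0.0011). Irf7 (r = 0.296, rho = 0.242, permutation, adjusted p = 0.109 and 0.199; r = 0.275 without the 2 farthest) and Psmb8 (r = 0.129, rho = 0.227, permutation, adjusted p = 0.455 and 0.214; r = 0.0995 without the 2 farthest) did not pass. In all, 16 of the 28 members related to H2-Ab1 passed an adjusted p of 0.05 for r, at an r of 0.446 or more, which 15.6% of the other 12741 tested genes reached. The median r was 0.499 over these members and 0.29 over all genes.

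Group differences were tested with limma on log2(TPM + 1), over all 12742 genes that passed the filter, with Benjamini-Hochberg adjustment in each comparison. No member passed an adjusted p of 0.05 in any of 18 comparisons, a share of 0 of 29 in each. The counts at an unadjusted p under 0.05 are given below with the share of all tested genes that reached it in the same direction. A change on this scale understates that of genes near or below 1 TPM.

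Diabetes was the comparison with most members at the unadjusted threshold. In vehicle-treated mice, averaged over both genotypes, 28 of the 29 tested members were lower in Akita than in non-diabetic libraries, where 84.3% of all genes were lower by any amount. The members' median change was -0.38 log2 units beside -0.20 for all genes. All 6 transcription factors were lower (median -0.62), as were all 4 class II chains (median -0.75), all 4 class I genes (median -0.54) and all 8 peptide-supply genes (median -0.33), and 6 of 7 tested effectors (median -0.16). At an unadjusted p under 0.05 there were 10 of 29 members, all lower, beside 18.1% of all genes. At an adjusted p of 0.05 there were 0 members beside 0.557% of all genes.

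Stat2, the interferon signal transducer, came closest. It was at 3.08, 5.73, 4.75, 6.48 and 7.01 TPM in non-diabetic wild-type vehicle, and at 1.89 TPM (lowest), 3.10 TPM (median) and 3.58 TPM (highest) in Akita wild-type vehicle. In the knockout it was at 4.50, 8.81, 5.49, 5.10 and 5.72 TPM without diabetes, and at 1.62, 2.59 and 7.93 TPM (lowest, median, highest) with it. Of the 12 Akita vehicle libraries 11 were below the median of their genotype's non-diabetic libraries, and both genotypes' ranges overlapped. The averaged change in Stat2 was -0.68 ± 0.22 (SE; limma, adjusted p = 0.105). Ddx58 changed by -0.60 ± 0.21 (limma, adjusted p = 0.137), with 12 of 12 Akita libraries below that median. Class I genes B2m (-0.75 ± 0.30, adjusted p = 0.182) and H2-T23 (-0.53 ± 0.21, adjusted p = 0.180) were below it in 10 of 12 and 11 of 12. Psmb8 (-0.74 ± 0.28), Nlrc5 (-0.69 ± 0.25), Irf1 (-0.73 ± 0.34), Ciita (-0.55 ± 0.26), Irf7 (-0.37 ± 0.18) and Psme1 (-0.43 ± 0.21) were the other 6, at adjusted p-values of 0.156 to 0.265. Without non-diabetic wild-type vehicle sample 6 Ciita was -0.35. Of the class II chains 0 of 4 were at the unadjusted threshold.

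Within wild type 4 members reached the unadjusted threshold, all lower, beside 7.01% of all genes: Psmb9 (-0.77 ± 0.29, limma, adjusted p = 0.480), Psmb8, Stat2 and H2-T23. Psmb9 was at 0.707, 0.649, 0.379, 0.474 and 4.06 TPM in non-diabetic vehicle and at 0, 0.105 and 0.465 TPM (lowest, median, highest) in Akita vehicle. Its values overlapped, and without the non-diabetic sample at 4.06 TPM the change was -0.43. Within the knockout 5 members reached it, all lower, beside 14% of all genes: Nlrc5 (-1.002 ± 0.36, limma, adjusted p = 0.288), Irf7, Gbp3, Ddx58 and Stat2. The difference between genotypes in the diabetes effect had 0 members at the unadjusted threshold beside 3.19% of all genes, and 0 at the adjusted one. Its 95% interval for Stat2 ran from -0.88 to 0.87 log2 units, and for H2-Ab1 from -1.69 to 2.61.

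The diabetes values moved with the libraries of few genes. Without those 4 Akita vehicle libraries the members' median was -0.20 beside -0.04 for all genes, 26 of 29 members were lower, and 0 of 29 reached the unadjusted threshold, beside 3.51% of all genes that did so in that direction. Stat2 was then -0.47 and B2m -0.37. Scaling by the median of ratios, which moved the median of all genes from -0.20 to 0.00, left 23 of 28 members lower with a median of -0.27 and 4 at the unadjusted threshold, beside 4.95% of all genes. After TPM were rescaled to nuclear protein-coding genes the members' median was -0.32, with 30 of 34 lower. The share of all genes under that rescaling is not given here, so this count has no background. Leaving out Akita knockout vehicle sample 1, one of the 7 high in H2-Ab1, brought Stat2 to -0.79 with an adjusted p of 0.0471. Summed leukocyte markers had medians of 10.3 TPM (7.63 to 12.1) and 10.2 TPM (7.47 to 20.9) in the non-diabetic wild-type and knockout vehicle groups, and 7.42 TPM (1.56 to 10.9) and 6.83 TPM (2.65 to 11.8) in the Akita ones. Of the leukocyte markers 7 of 7 tested were lower, and Ptprc was at -0.55 ± 0.15 (limma, adjusted p = 0.0692). The part of leukocytes in the members' values was not tested.

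**Figure D4:**
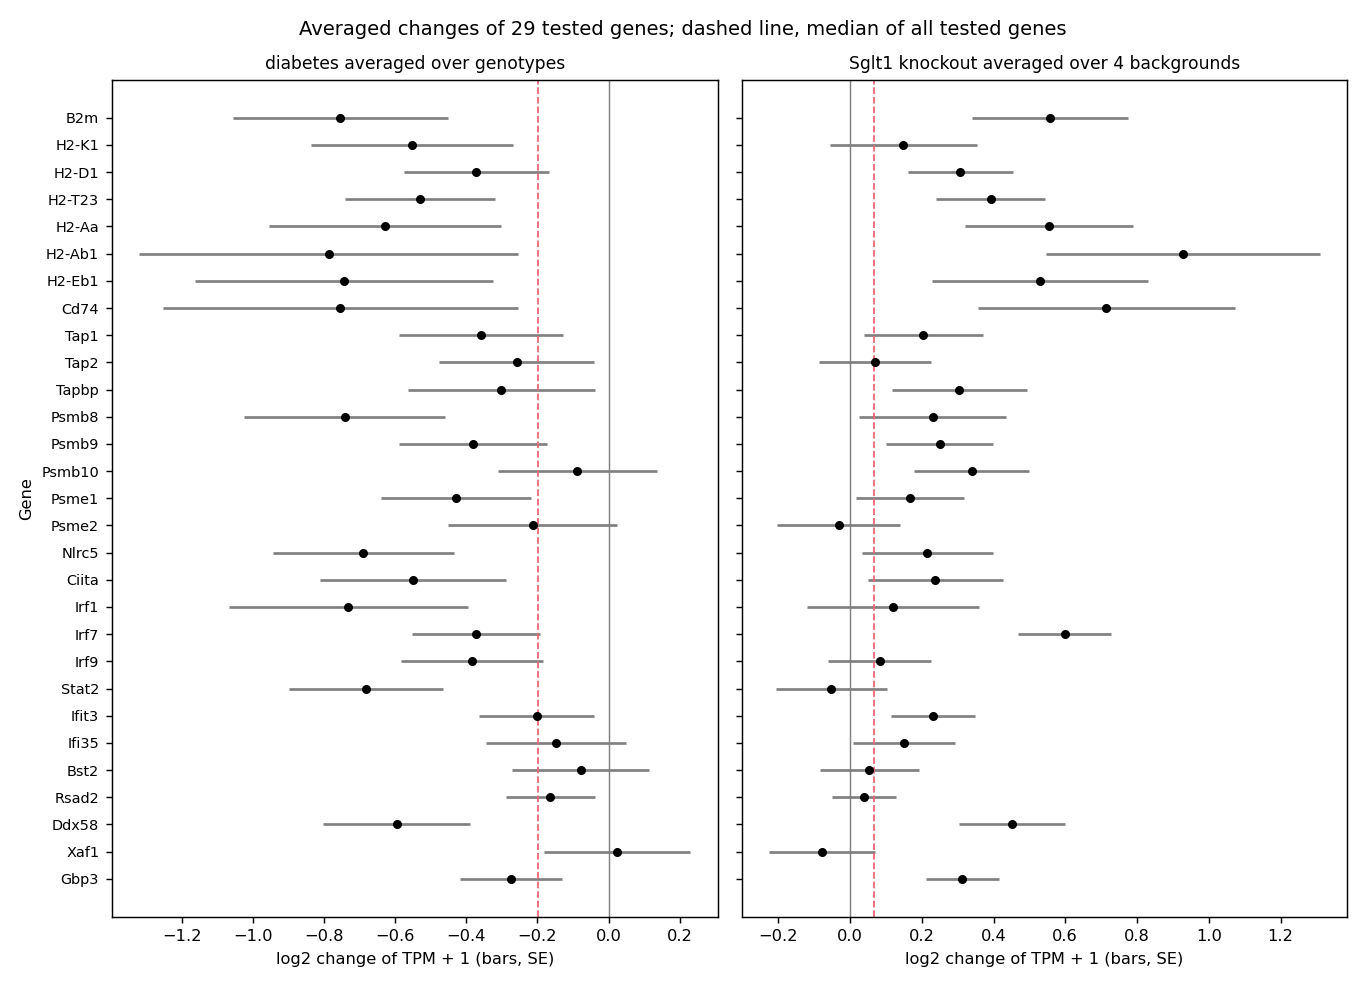
Change in log2(TPM + 1) of each of the 29 tested members, by role, for diabetes averaged over genotypes (left) and for Sglt1-/- averaged over 4 backgrounds (right); points are limma estimates, bars are ± 1 SE, and dashed lines mark the median of all tested genes. Estimates lie below 0 for 28 of 29 members in the first and above 0 for 26 of 29 in the second.

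Loss of Sglt1 was compared in 4 matched backgrounds, non-diabetic and Akita, vehicle and dapagliflozin, and averaged. Here 26 of 29 members were higher in the knockout, where 70.8% of all genes were, with a median of 0.23 beside 0.07 for all genes. At an unadjusted p under 0.05 there were 9 members, all higher, beside 4.11% of all genes. At an adjusted p of 0.05 there were 0 members beside 0.0235% of all genes. Class II chains were higher in 4 of 4 (median 0.63), class I genes in 4 of 4 (median 0.35), peptide-supply genes in 7 of 8 (median 0.22), transcription factors in 5 of 6 (median 0.17) and tested effectors in 6 of 7 (median 0.15).

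Irf7, the amplifier of the type I interferon response, stood first. It was at 0.379, 1.98, 0.505, 0.845 and 1.92 TPM in non-diabetic wild-type vehicle and at 2.44, 1.71, 2.97, 2.12 and 4.06 TPM in non-diabetic knockout vehicle. On dapagliflozin the non-diabetic wild-type libraries held 0.406, 1.24, 0.491 and 0 TPM, and the knockout libraries 0.730 TPM at the lowest, 1.86 TPM at the median and 3.44 TPM at the highest. Knockout libraries were mostly above wild-type ones in both backgrounds, with an overlap of few values. In Akita vehicle the wild type ran from 0.188 to 1.78 TPM (median 1.04) and the knockout from 0.504 to 2.79 TPM (median 1.33). Akita wild type on dapagliflozin had 0.319, 0.681, 1.23, 0.290 and 0.997 TPM, and the knockout 0.764 to 2.15 TPM (median 1.22). The Akita groups overlapped more. Over all groups Irf7 was at 0.875 ± 0.551 TPM (SD, n = 25) in wild type and 1.77 ± 0.934 TPM (SD, n = 23) in knockout libraries. These wild-type libraries include the 5 on semaglutide, which have no knockout counterpart, so the pooled values are not the matched comparison.

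The averaged change in Irf7 was 0.60 ± 0.13 log2 units (SE; limma, adjusted p = 0.0849), and 21 of 23 knockout libraries were above the median of the matched wild-type group. It did not pass. Its adjusted p was 0.0485 without the 4 libraries of few genes, lay between 0.0275 and 0.0447 when 1 of 7 single libraries was left out, and was 0.233 without the 7 libraries high in H2-Ab1, where the change was 0.57. In the 4 backgrounds taken singly, the change was 0.83 ± 0.27 in non-diabetic vehicle (5 of 5 knockout libraries above the wild-type median; limma, adjusted p = 0.981) and 0.18 ± 0.24 in Akita vehicle (adjusted p = 1). The test of that difference, the diabetes by genotype interaction, gave -0.65 ± 0.36 (adjusted p = 1).

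**Figure D5:**
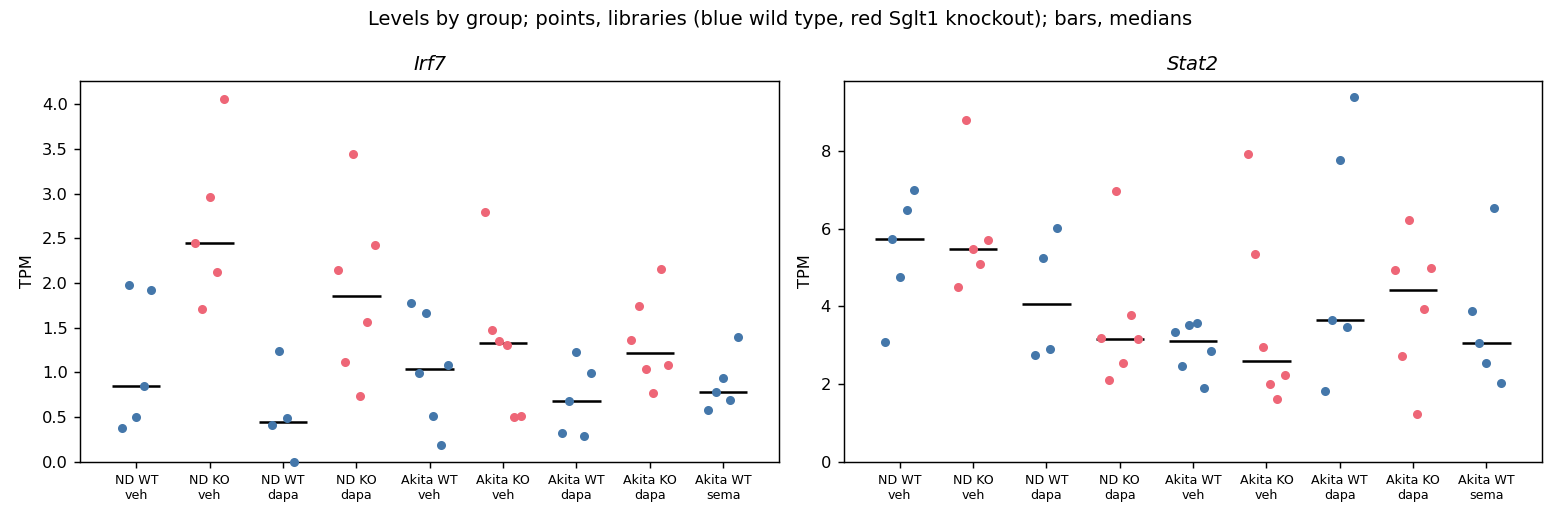
TPM of Irf7 and Stat2 in each library by group (abbreviations as in the heat map; blue wild type, red Sglt1-/-), with bars at the group medians. All 5 non-diabetic knockout vehicle libraries lie at 1.71 TPM or more of Irf7, above the wild-type median of that background.

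The other 8 members at the unadjusted threshold each had an adjusted p of 0.921 (limma). They were the effectors Gbp3 (0.31 ± 0.10), an interferon-induced GTPase, and Ddx58 (0.45 ± 0.15), the class I genes B2m (0.56 ± 0.22), H2-T23 (0.39 ± 0.15) and H2-D1 (0.31 ± 0.15), the class II chains H2-Ab1 (0.93 ± 0.38) and H2-Aa (0.56 ± 0.23), and Psmb10 (0.34 ± 0.16). In non-diabetic vehicle Gbp3 was at 0.173, 0.454, 0.548, 0.729 and 0.768 TPM in wild type and at 0.775, 0.880, 2.48, 1.23 and 1.25 TPM in the knockout. The highest wild-type value of Gbp3, 0.768 TPM, lay only just below the lowest knockout value, 0.775 TPM. The share of all genes whose ranges were parted in this way was not counted. In that background 3.59% of all genes were higher at the unadjusted threshold, as were 3 of 29 members, Irf7, Gbp3 and Ddx58. The adjusted threshold was passed by 0.0235% of all genes. H2-Ab1 had a median of 8.24 TPM over all wild-type libraries, those on semaglutide included, and 13.2 TPM over the knockout libraries. In the matched backgrounds 17 of 23 knockout libraries were above the wild-type median.

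The knockout estimates of MHC genes rested in part on the 7 libraries high in H2-Ab1, of which 6 were knockout. Leaving them out, a choice made by the value of a member and after seeing the data, gave H2-Ab1 at 0.39 ± 0.21, B2m at 0.20 ± 0.16, H2-T23 at 0.23 ± 0.13 and H2-D1 at 0.10 ± 0.12. The members' median was then 0.10 beside 0.03, with 20 of 27 higher and 2 at the unadjusted threshold, beside 1.8% of all genes. They were Irf7 and Ddx58 (0.36 ± 0.17). Median-of-ratios scaling gave 24 of 28 members higher with a median of 0.17, and rescaling to nuclear protein-coding genes 28 of 34 with a median of 0.27. The shares of all genes under these scalings are not given here, so the counts have no background. In Akita vehicle alone 0 of 29 members reached the unadjusted threshold, beside 1.95% of all genes, and 0.0157% of all genes passed the adjusted one.

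Dapagliflozin in non-diabetic wild type left 26 of 29 members lower than on vehicle, where 70.7% of all genes were lower, with a median of -0.41 beside -0.13. B2m was at 10.3, 21.6, 12.2 and 13.2 TPM on dapagliflozin, against 19.1 to 62.3 TPM on vehicle, so that 4 of 4 libraries were below the vehicle median of 23.8 TPM and the ranges overlapped by 1 library. The change in B2m was -0.98 ± 0.47 and that in Psmb9 -0.72 ± 0.33 (limma, adjusted p = 0.981 each). These 2 members were at the unadjusted threshold, both lower, beside 3.34% of all genes, and 0 of all genes passed the adjusted one. Without the vehicle sample at 140 TPM of H2-Ab1, B2m was -0.70, Psmb9 -0.38 and the members' median -0.26. Summed leukocyte markers were also lower in this group, at a median of 5.51 TPM (3.85 to 9.26) against 10.3 TPM on vehicle, and their part was not tested.

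In non-diabetic knockout mice the members had no common direction under dapagliflozin, with 14 higher and 15 lower beside 40.2% and 59.6% of all genes, and a median of -0.05 beside -0.06. Bst2, a membrane protein that tethers viruses, was 0.68 ± 0.27 and Psmb10 0.69 ± 0.32, each above the vehicle median in 6 of 6 libraries, and Stat2 was -0.62 ± 0.31 (limma, adjusted p = 1 each). That is 2 members higher beside 0.989% of all genes and 1 lower beside 2.89% at the unadjusted threshold, with 0.00785% of all genes past the adjusted one. Without sample 3 on dapagliflozin, one of the 7 high in H2-Ab1, Psmb10 was 0.40. Averaged over genotypes, Irf7 (-0.41 ± 0.19), Ddx58 (-0.45 ± 0.22) and Stat2 (-0.47 ± 0.23) were at the unadjusted threshold in the non-diabetic mice, beside 3.18% of all genes lower, each at an adjusted p of 0.979 (limma). Ddx58 was below the matched vehicle median in 10 of 10 dapagliflozin libraries.

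In Akita mice dapagliflozin gave 25 of 29 members higher, averaged over genotypes, where 80.8% of all genes were higher. The members' median of 0.10 was below the 0.17 of all genes, and 0 of 29 reached the unadjusted threshold, in a comparison where 16.8% of all genes did so upwards and 0.816% passed the adjusted one. The direction depended on the setting: with median-of-ratios scaling 11 of 28 members were higher and 17 lower, and without the 4 libraries of few genes 5 were higher and 24 lower. The shares of all genes in these settings are not given here, so the counts do not set the members apart from other genes. B2m was at 24.1, 17.5, 12.6, 24.4 and 24.4 TPM in Akita wild type on dapagliflozin, against 8.51 to 25.2 TPM on vehicle, and its averaged change of 0.46 had a 95% interval of -0.14 to 1.06. For H2-Ab1 the change was 0.07, with an interval of -0.99 to 1.12. Taken singly, neither genotype had a member at the unadjusted threshold, where 9.68% of all genes were higher in wild type and 6.96% in the knockout. The difference between genotypes in this response also had 0 members at it, beside 1.93% of all genes.

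The dapagliflozin response differed between Akita and non-diabetic mice by 0.80 ± 0.31 for Stat2 and 0.63 ± 0.30 for Ddx58 (limma, adjusted p = 0.295 and 0.329), averaged over genotypes. Both were higher, as were 14.4% of all genes at the unadjusted threshold, and 0 of all genes passed the adjusted one. These values use the same vehicle libraries as the diabetes comparison.

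Capture number here means the number in each sample title, which the labels tie to no batch or day. Semaglutide libraries had capture numbers 88 to 99, apart from Akita wild-type vehicle (1 to 82) and dapagliflozin (4 to 78). Treatment and capture number therefore cannot be told apart in the semaglutide comparisons. Semaglutide in Akita wild type gave 18 of 29 members higher and 11 lower, where 70.7% of all genes were higher. The members' median was 0.08 beside 0.13 for all genes. With median-of-ratios scaling 11 of 28 members were higher, and the share of all genes under that scaling is not given here. No member was at the unadjusted threshold, beside 5.2% of all genes upwards, and the smallest adjusted p of a member was 0.845 (limma). Ddx58, at 2.80, 4.02, 2.08, 5.59 and 6.61 TPM on semaglutide against 0.898 to 3.82 TPM on vehicle, had the change of 0.58 ± 0.29. For H2-Ab1 the 95% interval ran from -1.31 to 1.73 log2 units and for B2m from -0.61 to 1.12. Changes within those intervals, in either direction, were compatible with these data. Against dapagliflozin at the stated doses, semaglutide differed in 0 members at the unadjusted threshold, beside 2.61% of all genes, with H2-Ab1 at 0.32 (-1.26 to 1.91) and Irf1 at -0.77 (-1.77 to 0.23). An F-test over the 9 groups had 5 members at the unadjusted threshold (Irf7, B2m, Gbp3, H2-T23 and Ddx58) beside 7.31% of all genes, with the smallest adjusted p of 0.175 for Irf7, while 0.0706% of all genes passed the adjusted one.

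The rest of the pathway was read from 4 lists of other genes. Other antigen presentation genes, led in level by the endoplasmic reticulum chaperones Canx (median 153 TPM) and Calr (144 TPM) and the lysosomal protease Lgmn (93.6 TPM), were lower with diabetes in 17 of 19 tested, with a median of -0.34 and 8 at the unadjusted threshold, which 18.1% of all genes reached downwards. Of these 1 passed the adjusted one: Ctss, the lysosomal protease cathepsin S that trims the invariant chain. Ctss was at 0.508, 2.17, 0.976, 1.47 and 2.18 TPM in non-diabetic wild-type vehicle, and at 0.180, 0.531 and 0.726 TPM (lowest, median, highest) in Akita wild-type vehicle. In the knockout it was at 0.988, 1.96, 3.43, 2.43 and 1.63 TPM without diabetes and at 0.261, 0.423 and 0.881 TPM (lowest, median, highest) with it. In the knockout the highest Akita value, 0.881 TPM, lay below the lowest non-diabetic one, 0.988 TPM. The share of all genes whose ranges were parted in this way was not counted. In all, 12 of 12 Akita libraries were below the median of their genotype's non-diabetic libraries. Ctss fell by 0.82 ± 0.17 log2 units (SE; limma, adjusted p = 0.0157), and the adjusted p was 0.0511 with median-of-ratios scaling, 0.139 after rescaling to nuclear protein-coding genes and 0.315 without the 4 libraries of few genes. Macrophages also express Ctss, and the leukocyte markers given above were lower in the same groups, with a part in the Ctss value that was not tested.

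Interferon receptors, sensors and signalling genes, led by the kinase gene Jak1 (14.9 TPM), Irf3 (13.6 TPM) and Stat3 (10.1 TPM), were lower with diabetes in 18 of 18, with a median of -0.35 and 6 at the unadjusted threshold, beside the same 18.1% of all genes. Other interferon-stimulated genes, led by Ly6e (22.2 TPM), Trim25 (9.52 TPM) and Ifi27 (5.69 TPM), were lower in 31 of 33, with a median of -0.39 and 11 of 33 at it. The constitutive proteasome genes, led by Psmb6 (14.5 TPM), Psme4 (14.6 TPM) and Psmb5 (8.03 TPM), were lower in 5 of 6, with a median of -0.17 and 1 of 6 at it. Early proximal tubule markers were lower in 7 of 8 (median -0.21) and endothelial markers in 12 of 12 (median -0.34), in a comparison where 84.3% of all genes were lower. With loss of Sglt1, averaged over backgrounds, other antigen presentation genes were higher in 18 of 19 (median 0.13), other interferon-stimulated genes in 27 of 33 (median 0.15) and receptors, sensors and signalling genes in 13 of 18 (median 0.07), beside 8 of 8 early proximal tubule markers (median 0.08) and 4 of 7 leukocyte markers (median 0.07). No gene of these lists other than Ctss passed the adjusted threshold in any of the 18 comparisons.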

How the data were processed

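Early proximal tubule RNA (0.5 ng, DV200 above 30%) was made into libraries with a stranded total RNA kit, per the labels' protocols. Per the submitters' processing notes the tools were Salmon, (version and annotation not given in the sources used here) and MultiQC 1.8, with build GRCm38. The authors deposited TPM for 55487 genes in 48 libraries. The table's name states that outliers were removed, without the rule, and 6 labelled samples were not analysed here. TPM keep no depth, so no counting interval is given.

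Genes with at least 1 TPM in at least 5 samples (12742) were tested with limma 3.58.1 (R 4.3.3) on log2(TPM + 1), 1 fit to 9 groups with 39 residual degrees of freedom, trended and robust variances, two-sided, Benjamini-Hochberg adjusted at 0.05. The fit was tested on simulated data. Alternatives were 2 other scalings, a pseudocount of 0.1, no filter, a filter in 24 samples and only the groups compared. Further ones were the number in the sample title as a covariate, the libraries of fewest genes left out and each of 48 libraries left out in turn. Leaving out the 7 libraries highest in H2-Ab1 was added after seeing the data. All 34 members were named, and from other lists the 3 highest genes and any gene that passed. Correlations used 100000 permutations within groups. Promoters are RefSeq's. The members and lists were chosen with earlier results of these data known.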

Additional observations from a re-analysis of the deposited data

Results flagged for a closer look

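Each member was examined for single libraries far from the rest of their group in the 9 groups of 4 to 6 libraries, 261 tests on the log2(TPM + 1) scale by Dixon's criterion at 95%. On the TPM scale a value stood apart in 45 of them. On the log2 scale it did so in 14, where chance gives about 1 in 20 tests. That count is close to the chance share, so the 14 are listed below as single values and not as a result about the members.

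Class I and class II genes gave 4 of them. H2-D1 was 73.3 TPM in non-diabetic wild-type vehicle sample 6, with the others at 29.3 to 37.2 TPM. H2-Eb1 was 22.1 TPM in Akita knockout vehicle sample 1 (others 1.37 to 3.91), and Cd74 was 169 TPM in non-diabetic knockout vehicle sample 3 (others 8.55 to 20.8). Cd74 was low, at 3.94 TPM, in Akita wild-type vehicle sample 2, a library of few genes (others 12.5 to 16.6).

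Ciita, the class II coactivator, was 9.52 TPM in non-diabetic knockout dapagliflozin sample 3 (others 0.768 to 1.97) and 4.46 TPM in Akita knockout vehicle sample 1 (others 0.121 to 0.924). Immunoproteasome subunits gave 6. In non-diabetic wild-type vehicle sample 6, Psmb8 was 9.01 TPM (others 1.33 to 2.08) and Psmb9 4.06 TPM (others 0.379 to 0.707). Psmb8 was 2.11 TPM in non-diabetic wild-type dapagliflozin sample 6 (others 0.561 to 0.666) and 1.61 TPM in Akita semaglutide sample 5 (others 0.659 to 0.809). Psmb9 was 0.886 TPM in non-diabetic wild-type dapagliflozin sample 3 (others 0 to 0.0709), and Psmb10 was 1.38 TPM in non-diabetic knockout vehicle sample 2 (others 0.510 to 0.665).

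The last 2 were Irf9, low at 1.54 TPM in non-diabetic knockout dapagliflozin sample 6 (others 2.62 to 3.32), and Xaf1, an interferon-stimulated apoptosis factor, at 1.85 TPM in Akita knockout dapagliflozin sample 2 (others 0.0469 to 0.445).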

How the results depend on the processing

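No paired analysis was possible because the sample numbers only name samples within a group, and the labels tie no number to a litter, batch or day shared across groups. With 9 other settings and each of 48 libraries left out in turn, Ctss kept its sign. The members' median changed sign in at least 1 of these in 10 of 17 comparisons, and with 1 library left out in 7 of 17. Without the libraries of fewest genes 1 member passed in the averaged knockout comparison, Irf7. Leaving out 1 library gave 0 to 1 members there, with Irf7 passing without non-diabetic wild-type vehicle sample 3 or 6, non-diabetic wild-type dapagliflozin sample 3, non-diabetic knockout dapagliflozin sample 4, Akita wild-type vehicle sample 1, or Akita knockout vehicle sample 5 or 6. It also gave 0 to 1 members for diabetes averaged over genotypes, with Stat2 passing without Akita knockout vehicle sample 1. The cause was not tested. The members' median for diabetes was -0.38 and ranged from -0.59 to -0.20 over the settings, that for loss of Sglt1 was 0.23 and ranged from 0.10 to 0.34, and that for loss of Sglt1 in non-diabetic vehicle was 0.12 and ranged from -0.03 to 0.18. Genes called of all tested were 71 for averaged diabetes, and 4 to 91 under the other settings and 11 to 315 with 1 library left out. For dapagliflozin in Akita mice they were 104, with 0 to 150 and 9 to 378. TPM without depth limits what can be said of members near 0.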
